A study of Mus musculus with 2 samples.

Results

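The aryl hydrocarbon receptor (AHR) pathway was followed through 8 genes that encode the receptor (Ahr), its partner ARNT (Arnt), the other main partner of ARNT (Hif1a), a repressor (Ahrr) and 4 classical target genes (Tiparp, Cyp1a1, Cyp1b1 and Nqo1). They were taken by symbol from the 19937 genes with a probe set that GEO's platform annotation assigns to a single gene symbol. All 8 had a value, and each was measured by 1 probe set. RNA came from TR1 cells (type 1 regulatory T cells, CD4 T cells that make IL-10) of the small intestine of mice. The wildtype sample had a normal IL-10 receptor alpha chain (IL10RA). The impaired sample came from CD4-DNIL-10R transgenic mice, whose name denotes a dominant-negative IL-10 receptor driven by Cd4 sequences. Mice of both genotypes had received anti-CD3 antibody (clone 2C11, 15 μg) by 2 intraperitoneal injections on alternate days and were killed 4 or 48 hours after the last dose. Which time belongs to which array, the age, the sorting gates and the number of mice pooled are not stated in the labels. Each genotype was measured on 1 Affymetrix array, so there was no replicate error and no difference was tested.

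AHR is a ligand-activated transcription factor of the bHLH-PAS family. Without ligand it is held in the cytosol by a chaperone complex. Dietary indoles, microbial products and tryptophan metabolites release it to the nucleus, where it pairs with ARNT and binds DNA. It induces cytochrome P450 enzymes that clear its ligands, and AHRR and TIPARP, which restrain the receptor. HIF1A, the factor of the low-oxygen response, uses the same partner. In T cells AHR is known to act with MAF on Il10 and Il21 in TR1 cells, and to support IL-17- and IL-22-producing cells of the gut.

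The target genes are shown first by the sequence before their start, because the AHR-ARNT pair recognises the core GCGTG. The sequences are from RefSeq (GRCm38.p6), whose promoter table held 7 of the 8 genes, without Ahr. The first 250 bases upstream of the start are given 5′ to 3′ on the strand of the gene, for Ahrr, Tiparp, Cyp1a1 and Cyp1b1. Each of these 4 windows holds the core. The window of Nqo1, also named above as a classical target, holds 0 copies and is not printed. Capitals mark GCGTG or, where the core lies on the other strand, CACGC. The window of Ahrr is chr13:74292332-74292581 (minus strand), that of Tiparp chr3:65528197-65528446 (plus), that of Cyp1a1 chr9:57697363-57697612 (plus) and that of Cyp1b1 chr17:79715062-79715311 (minus).
Ahrr: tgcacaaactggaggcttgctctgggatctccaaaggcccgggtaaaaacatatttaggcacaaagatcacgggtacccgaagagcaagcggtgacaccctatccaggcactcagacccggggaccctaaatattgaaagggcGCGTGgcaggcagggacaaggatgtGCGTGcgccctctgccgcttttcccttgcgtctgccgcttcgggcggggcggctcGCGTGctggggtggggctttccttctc
Tiparp: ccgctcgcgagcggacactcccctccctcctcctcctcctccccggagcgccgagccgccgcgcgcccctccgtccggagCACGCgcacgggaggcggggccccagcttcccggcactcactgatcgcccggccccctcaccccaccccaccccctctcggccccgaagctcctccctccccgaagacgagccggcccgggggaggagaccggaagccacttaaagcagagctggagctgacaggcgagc
Cyp1a1: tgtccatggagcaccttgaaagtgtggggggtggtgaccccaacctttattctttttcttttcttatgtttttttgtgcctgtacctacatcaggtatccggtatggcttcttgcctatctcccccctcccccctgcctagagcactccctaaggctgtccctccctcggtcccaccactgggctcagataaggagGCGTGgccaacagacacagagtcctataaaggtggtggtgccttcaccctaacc
Cyp1b1: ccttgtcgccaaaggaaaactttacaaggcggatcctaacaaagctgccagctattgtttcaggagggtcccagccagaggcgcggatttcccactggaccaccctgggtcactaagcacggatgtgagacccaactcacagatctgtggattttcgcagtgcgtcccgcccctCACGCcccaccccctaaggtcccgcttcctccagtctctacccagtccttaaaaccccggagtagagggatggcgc

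The window of Ahrr held 3 copies of GCGTG, beginning 107, 82 and 27 bases before the start. Tiparp held 1 copy on the other strand, 170 to 166 bases before the start. Cyp1a1 held 1 copy, 54 to 50 bases before the start, and Cyp1b1 1 on the other strand, 76 to 72 bases before it. Arnt held 1 copy, and Hif1a and Nqo1 held 0. Searched on both strands, GCGTG occurs in 28.2% of the 32851 windows of this length in the table, and 2.77% hold at least 3 copies. The HIF1A-ARNT core ACGTG, present in 16.6% of windows, was found only in the window of Hif1a among the 7, at 3 places of which 2 are both strands of a single CACGTG. The NRF2 element TGACNNNGC, present in 10.2% of windows, was found at 2 places before Arnt and at 0 before Nqo1. No match of 1 motif overlapped a match of another in these 7 windows. Bases further upstream were not searched, so a count of 0 holds for this window only. These matches are descriptions of the letters in the window and were not linked to binding.

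Values below are log2 RMA expression, and every difference is impaired minus wildtype on that log2 scale. A floor was set at 6.91, the median over all probe sets, and a gene was said to be past it when its brighter array reached it. Of the 8 genes, 5 (Ahr, Arnt, Hif1a, Ahrr and Tiparp) were past the floor, on both arrays, and 3 (Cyp1a1, Cyp1b1 and Nqo1) were below it on both. Of the 8, 0 differed by 2-fold or more, a size that 1.02% of all 19937 genes and 1.65% of the 11124 genes past the floor reached. At 1.5-fold the count was also 0, against 5.38% of all genes and 7.39% of those past the floor. Past the floor 4 genes were below 0 and 1 above, where 49.5% of all genes past the floor were below 0. Their median was -0.17, against 0.00 for all genes past the floor. The 3 genes below the floor were all above 0, as were 53.2% of the 8813 genes below it. Over all 8 the median was 0.0605, with 4 above 0 and 4 below, where 51.5% of all genes were above 0.

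**Figure D1:**
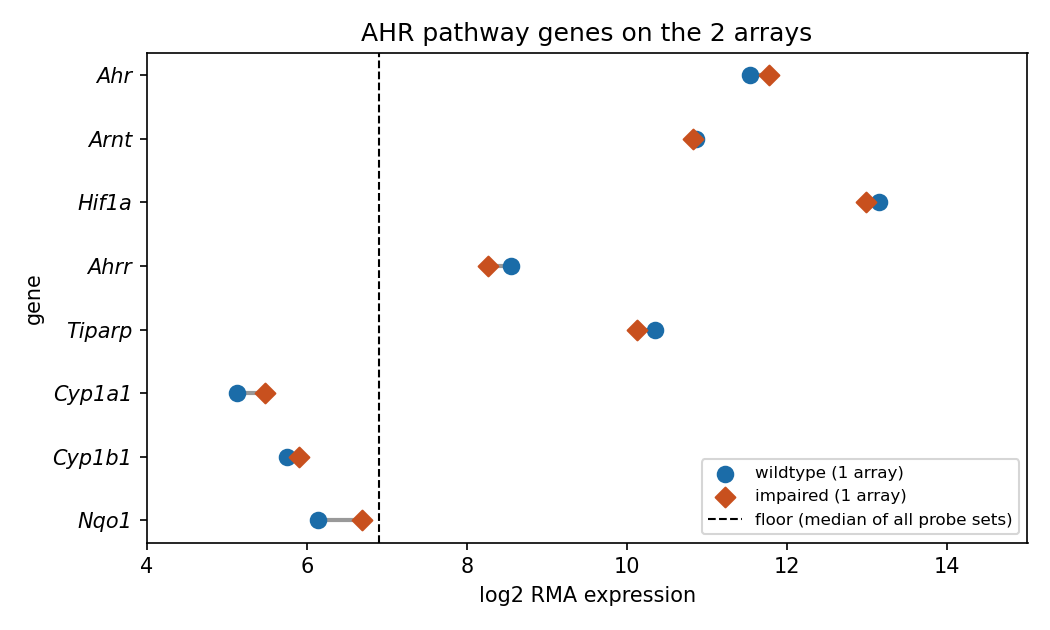
Log2 RMA expression (x axis) of the 8 AHR pathway genes (y axis) on the wildtype array (circles) and the impaired array (diamonds), 1 array each, with the floor of 6.91 as a dashed line. The symbols of each gene lie close together, and Cyp1a1, Cyp1b1 and Nqo1 sit left of the floor on both arrays.

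Ahr, the receptor itself, was at 11.53 on the wildtype array and 11.78 on the impaired array. The impaired sample was brighter by 0.24, or 1.18-fold, and Ahr was the only gene of the 5 past the floor that was above 0. Among genes past the floor, 35.2% had a difference of at least this size in either direction. Arnt, the partner that AHR and HIF1A share, was at 10.86 on the wildtype array and 10.83 on the impaired array, a difference of -0.03. Its arrays were nearly equal, and its difference was 0.03 after loess centring, which subtracts a smooth curve of the difference against brightness. Hif1a was at 13.15 on the wildtype array and 12.98 on the impaired array, a difference of -0.17 (1.13-fold dimmer). A difference of that size or more was found for 49.5% of genes past the floor. Ahr and Hif1a, which share ARNT, thus lay on opposite sides of 0. The log2 ratio of Ahr to Hif1a signal was higher in the impaired sample by 0.42, a value that a uniform scaling of either array leaves unchanged. In RNA from many cells, fewer cells that carry a transcript and less transcript per cell cannot be told apart.

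Ahrr, the repressor that competes with AHR for ARNT and for DNA, was at 8.55 on the wildtype array and 8.26 on the impaired array. It was dimmer in the impaired sample by 1.22-fold (difference -0.29), the lowest value of the 8, and 28.0% of genes past the floor differed by as much or more. Tiparp encodes an ADP-ribosyltransferase that modifies AHR and ends its activity. It was at 10.34 on the wildtype array and 10.13 on the impaired array, a difference of -0.22 (1.16-fold dimmer). Of genes past the floor, 40.1% differed by as much or more. Both restraining genes were therefore dimmer on the array on which the receptor was brighter. The log2 ratio of Ahr to Ahrr was higher in the impaired sample by 0.53 and that of Ahr to Tiparp by 0.46. With loess centring these 2 values were 0.57 and 0.45, and with an offset of 32 on the linear scale 0.51 and 0.45. The log2 ratio of Ahr to Arnt differed by less, 0.27, and that of Ahrr to Tiparp by -0.07. The ratios were not set beside those of gene pairs outside the 8, and the activity of the receptor was not tested.

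The detoxifying enzymes gave low signal on both arrays. Cyp1a1, the P450 enzyme most strongly induced by AHR and the main one that clears its ligands in the gut wall, was at 5.13 on the wildtype array and 5.48 on the impaired array. Both values lay below 5.70, the 25th percentile of all probe sets. The difference of 0.35 (1.27-fold) was 0.19 with the offset, and 11.9% of genes below the floor differed by at least 0.35. Cyp1b1, a related P450 enzyme, was at 5.76 on the wildtype array and 5.91 on the impaired array, a difference of 0.15 that 43.3% of genes below the floor matched or passed. No detection call was at hand to say whether either transcript was present. Nqo1, a quinone reductase that AHR and the oxidative stress factor NRF2 both induce, was at 6.14 on the wildtype array and 6.69 on the impaired array. Its difference of 0.55 (1.46-fold) was the highest of the 8, and 3.61% of genes below the floor differed by as much. With the offset the difference was 0.40 (1.32-fold).

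**Figure D2:**
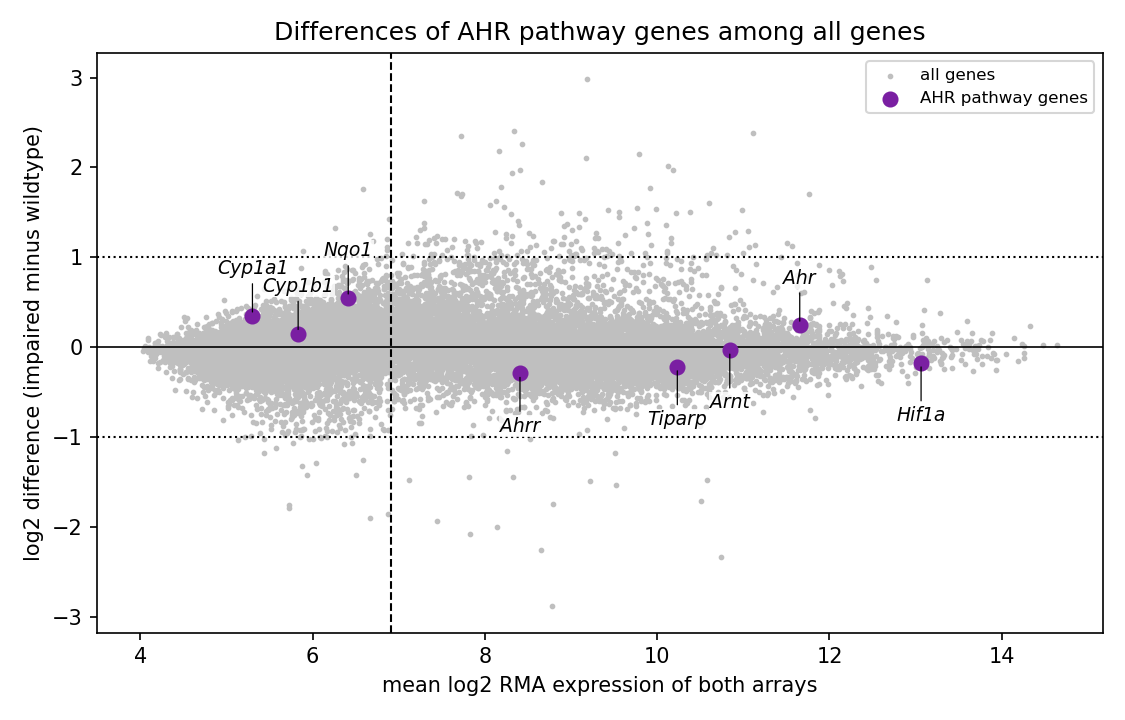
Log2 difference, impaired minus wildtype (y axis), against the mean log2 RMA expression of both arrays (x axis) for all 19937 genes (grey) and the 8 AHR pathway genes (purple). Dotted lines mark 2-fold and the dashed line the floor of 6.91; all 8 genes lie between -0.29 and 0.55, inside the dotted lines.

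The RNA carried signal from T cells and from other cells of the gut wall. Of the T cell markers, 12 of 12 measured were past the floor, as were 11124 of all 19937 genes. Of the 12, 5 were above 0 and 7 below, with a median difference of -0.01. All 8 TR1 markers were past the floor, 1 above 0 and 7 below (median -0.05), beside 49.5% of genes past the floor below 0. After loess centring Il10, Lag3 and Maf lay above 0, at 0.03, 0.01 and 0.03. All 18 enterocyte markers were past the floor and brighter in the impaired sample (median 1.01, or 2.01-fold), where 50.2% of genes past the floor were above 0. Their summed linear signal was 23717 on the wildtype array and 43746 on the impaired array. Of 11 goblet and Paneth cell markers measured, 11 were brighter (median 0.86, summed signal 28282 and 47844), where 51.5% of all genes were above 0. Some markers of other cells passed the floor only on the array where they were brighter, so the counts that follow take every measured marker, with no floor, beside 51.5% of all genes above 0. Of 12 neutrophil markers 11 were above 0 and 1 below (median 1.68, summed signal 2210 and 6984). Of 10 B and plasma cell markers 9 were above 0 (median 0.42), and of 13 macrophage and dendritic cell markers 12 were (median 0.21). Of 11 stromal and endothelial markers 8 were above 0 and 2 below (median 0.16). Of 10 markers of innate lymphoid, NK, CD8 and gamma-delta T cells 5 were above 0 and 5 below. Largest in absolute size were Cd8a at -0.70, Eomes at 0.26, Sox13 at 0.24 and Kit at 0.18. Eomes, at 6.70 on the wildtype array and 6.96 on the impaired array, was past the floor only on the impaired array. Cd8b1, the other CD8 chain, chosen after its value was seen, was at -0.09. Also below 0 were Ncr1 at -0.13, Id2 at -0.10 and Klrb1c at -0.09, and above 0 Gata3 and Rora at 0.08 each. All 9 pancreatic acinar markers measured were dimmer in the impaired sample (median -1.71, summed signal 9628 and 2738), where 9491 of all 19937 genes were below 0. Of these 9, 2 were past the floor only on the wildtype array. Enterocytes and myeloid cells also express Ahr, Tiparp, Cyp1a1, Nqo1 and Hif1a. Ahr, Cyp1a1, Cyp1b1 and Nqo1 were brighter on the impaired array, as were all 18 enterocyte markers and 11 of 12 neutrophil markers. Ahrr, Tiparp and Hif1a were dimmer there, as were all 9 acinar markers, and Arnt was nearly equal on both arrays. The part of any of these cells in the values of the 8 genes was not tested.

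The complex that holds the inactive receptor was measured in part. Of 5 chaperone genes listed, 3 had a value and all 3 were past the floor, with 2 below 0. Hsp90aa1, which encodes an HSP90 chaperone, was at 12.31 on the wildtype array and 12.26 on the impaired array (-0.04). Ptges3, which encodes the HSP90 co-chaperone p23, was at 11.43 and 10.93, a difference of -0.50 (1.41-fold dimmer). Src, a kinase reported in the same complex, was at 8.23 and 8.56 (0.33). Of the 3, 0 reached 1.5-fold, a size that 7.39% of genes past the floor reached, so that a count of 0 among so few says little about the list.

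Other bHLH-PAS factors and their coactivators had differences on both sides of 0. Of 15 listed, 14 had a value and 7 were past the floor, 5 above 0 and 2 below, with a median of 0.10. At 1.5-fold the count was 0 of 7, beside 7.39% of all genes past the floor. Arnt2, a relative of Arnt, was at 7.52 on the wildtype array and 7.85 on the impaired array (0.33). Arntl, the clock factor BMAL1, was at 9.05 and 8.74 (-0.31). Epas1, which encodes HIF2A, was at 9.19 and 9.44 (0.25), opposite in sign to Hif1a. Ncoa1, a coactivator of nuclear receptors and bHLH-PAS factors, differed by 0.12.

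A wider set of genes reported to be induced through AHR had values in both directions. Of 20 listed, 16 had a value and 8 were past the floor, of which 6 were above 0, 2 below and 0 beyond 1.5-fold, beside 50.2% above 0 and 7.39% beyond 1.5-fold among all genes past the floor. The median was 0.25 over these 8 and 0.118 over the 7 past the floor on both arrays. It was 0.117 over all 16, of which 11 were above 0 and 5 below. Over the 6 genes left by a stricter floor (8.86, the 75th percentile) it was 0.0605. Cyp2s1, an epithelial P450 enzyme, was at 7.27 on the wildtype array and 7.84 on the impaired array (0.57). Hes1, a transcription factor of the Notch response, was at 6.67, below the floor, and 7.14 (0.47). Because Hes1 was past the floor only on the impaired array, where it was brighter, its sign was set by the floor. Ido1, which opens the tryptophan ring, was at 9.47 and 9.91 (0.44). Scin, an actin-severing protein, went the other way, at 8.998 and 8.607 (-0.39). Enterocyte markers were brighter in the same sample by a median of 1.01, and their part in these values was not tested.

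T cell genes linked to AHR lay on both sides of 0. Of 19 listed, 16 had a value and 15 were past the floor, 6 above 0 and 9 below, with a median of -0.02 that was 0.03 after loess centring. Chosen after their values were seen, Il10 and Maf differed by -0.02 each, or 0.03 each after loess centring. Also chosen so, Il21, the cytokine that AHR and MAF are known to induce, differed by -0.31, Cd160, a receptor of the immunoglobulin superfamily, by -0.39 and Gpr55, a lipid receptor, by -0.20. At least 1.5-fold brighter were 4 genes, a size that 5.89% of genes past the floor reached. They were Il17a, the cytokine of TH17 cells (9.60 on the wildtype array and 10.60 on the impaired array, 0.99), Ccr6, a homing receptor (7.68 and 8.51, 0.83), Entpd1, which encodes the ectonucleotidase CD39 (9.81 and 10.42, 0.61), and Il23r, the IL-23 receptor (8.79 and 9.37, 0.59). Il17a was at 1.05, past 2-fold, after loess centring. Il23r lay just past the 1.5-fold line of 0.585, at 0.587, and was at 0.55 with the offset. Neutrophil, B cell and enterocyte markers were mostly brighter in the same sample, as given above, and their part in these values was not tested.

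Genes for tryptophan uptake and for making AHR ligands were mostly brighter in the impaired sample. Of 18 listed, 17 had a value and 11 were past the floor. All 11 were above 0, where 50.2% of genes past the floor were, and the median was 0.44 (1.36-fold). Kmo (6.67 and 7.14), a kynurenine hydroxylase, was past the floor only on the impaired array, where it was brighter, so its sign was set by the floor. Over all 17 the median was 0.36, with 13 above 0 and 4 below. Slc7a8, an amino acid transporter, was at 7.62 on the wildtype array and 8.88 on the impaired array, a difference of 1.26 and the only one of the 11 beyond 2-fold, which 1.46% of genes past the floor were in this direction. Aldh2, an aldehyde dehydrogenase, was at 7.29 and 8.19 (0.90), and Maoa, which encodes monoamine oxidase A, at 6.92 and 7.77 (0.85). Slc7a5, the main tryptophan and kynurenine transporter of activated T cells, was at 9.66 and 10.14 (0.48). Slc7a8, Aldh2 and Maoa are also made by intestinal epithelium, whose 18 markers were all brighter in the same sample (median 1.01). The part of RNA from epithelial or other non-T cells was not tested for any of the 17 genes.

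**Figure D3:**
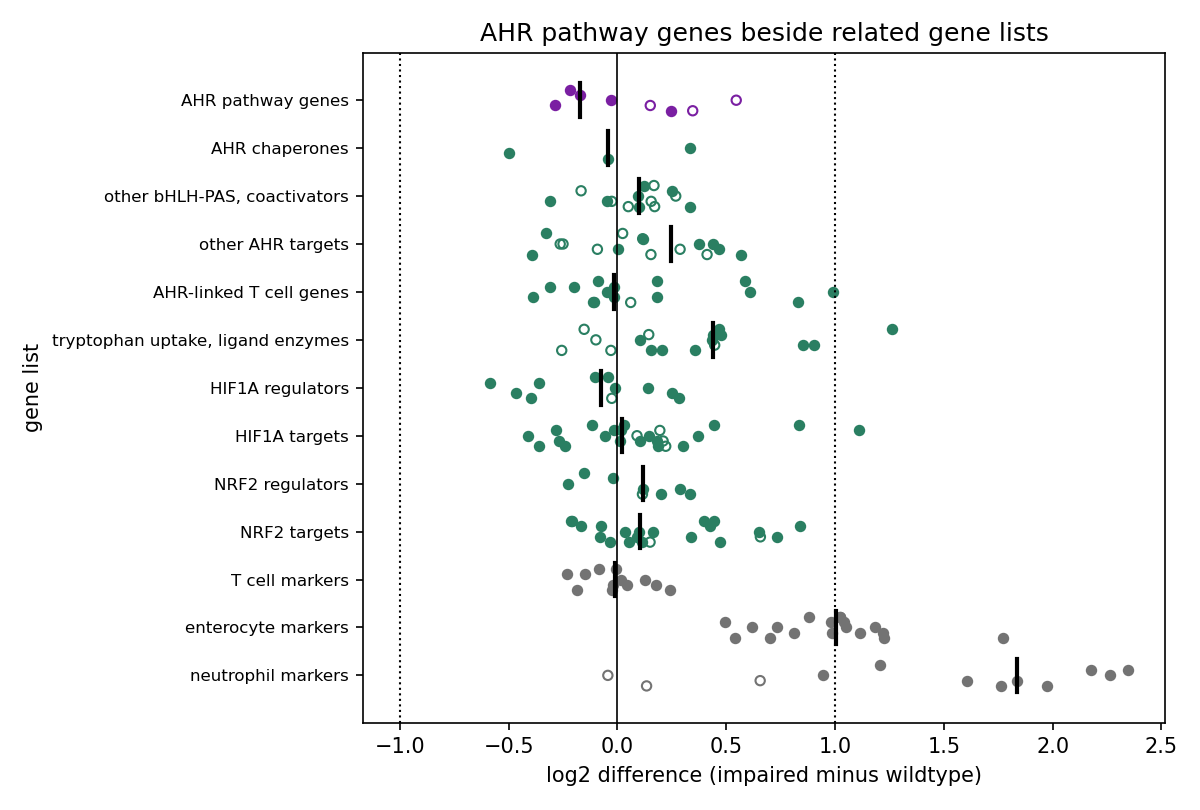
Log2 difference, impaired minus wildtype (x axis), of single genes in the AHR pathway, in 9 related lists and in 3 marker lists (y axis). Filled points are genes past the floor, open points genes below it, black bars the median of the filled points and dotted lines 2-fold; the tryptophan list has its median at 0.44, and the enterocyte and neutrophil markers at 1.01 and 1.84 (of the 9 filled neutrophil points, 3 were past the floor only on the impaired array).

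The lists of the oxygen-sensing arm around Hif1a had medians near 0. Among 11 regulators, 10 were past the floor, 7 below 0 and 3 above (median -0.07), beside 49.5% of all genes past the floor below 0. Of the 7, Hif1an (-0.01) and Elob (-0.04) lay just above 0 after loess centring, at 0.03 and 0.004. The median was then -0.03. The lowest was Rbx1, a subunit of the ubiquitin ligase that marks HIF1A for degradation, at 10.61 on the wildtype array and 10.02 on the impaired array (-0.59). It was the only regulator at least 1.5-fold dimmer, a size that 1.5% of genes past the floor reached, and was at -0.51 when its probe sets were averaged and -0.53 after loess centring, both inside 1.5-fold. Egln1 and Egln3, the prolyl hydroxylases that mark HIF1A under normal oxygen, differed by -0.47 and -0.36, and Eloc, elongin C of the same ligase, by -0.40. Among 24 HIF1A targets, 20 were past the floor, 12 above 0 and 8 below (median 0.02), beside 50.2% of all genes past the floor above 0. Car9, a carbonic anhydrase, was at 7.07 and 8.18 (1.11) and was the only one beyond 2-fold, a size that 1.46% of genes past the floor reached in this direction, with 0.95 under the offset. Vegfa, a vascular growth factor, was at 8.33 and 9.16 (0.83), Pfkfb3, a regulator of glycolysis, differed by 0.44 and P4ha1, a collagen prolyl hydroxylase, by -0.41. Car9 and Vegfa are also made by epithelial and myeloid cells, and that part was not tested.

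The NRF2 arm shares Nqo1 with AHR. Of 8 regulators 7 were past the floor, 4 above 0 and 3 below, near the 50.2% of all genes past the floor. Their median was 0.12, or -0.054 over the 2 left by the stricter floor, with Mafk at 0.33, Bach2 at 0.29, Bach1 at 0.20 and Cul3, a subunit of the ligase that degrades NRF2, at -0.23. Mafk, Bach1 and Bach2 encode factors that bind the NRF2 element. Of 23 targets 22 had a value and 20 were past the floor, 14 above 0 and 6 below (median 0.11), where 50.2% of all genes past the floor were above 0. At least 1.5-fold brighter were 3 of the 20, beside 5.89% of genes past the floor. They were Gsta4 (7.68 on the wildtype array and 8.51 on the impaired array, 0.84), Gpx2 (11.79 and 12.53, 0.73) and Gsr (10.08 and 10.73, 0.65). Gsta4 conjugates lipid peroxidation products to glutathione, Gpx2 is the glutathione peroxidase of intestinal epithelium, and Gsr recycles glutathione. Gclm, of glutathione synthesis, differed by 0.47. Nqo1, below the floor on both arrays, was at 0.55, or 0.40 with the offset. The median of the NRF2 targets was 0.11 over genes past the floor and 0.13 over all 22. Enterocyte markers stood at 1.01, and their part in these values was not tested.

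**Figure D4:**
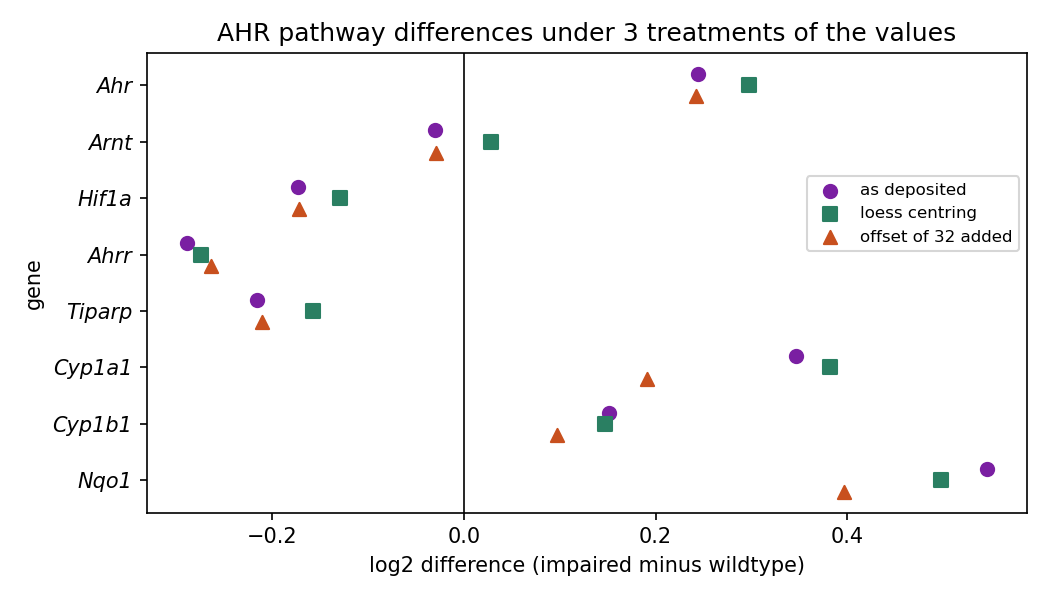
Log2 difference, impaired minus wildtype (x axis), of the 8 AHR pathway genes (y axis) from the deposited values (circles), after loess centring (squares) and with 32 added to the linear values (triangles). Arnt alone changes sides of 0, at -0.03 and 0.03, and Cyp1a1 and Nqo1 move most, to 0.19 and 0.40 with the offset.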

How the data were processed

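RNA of 1 wildtype and 1 impaired sample of intestinal TR1 cells was hybridised to 1 Affymetrix array each. The deposited table holds log2 values of 34760 probe sets, made by the authors with affy and RMA (background correction, quantile normalization and probe-set summary) per the submitters' processing notes; versions are not given there. RMA shrinks differences of dim probe sets, which bears on Cyp1a1, Cyp1b1 and Nqo1. Names came from GEO's platform annotation: 21640 probe sets had 1 symbol, 1321 several and 11799 were not listed. Where a gene had several probe sets, the brightest by the mean of both arrays was used. All 8 genes matched RefSeq by Entrez identifier.

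Differences are impaired minus wildtype, without a test, and were counted at 2-fold. The number of arrays limits the precision. The 8 genes and the 9 related and 10 marker lists were chosen with earlier results of these data known, and some genes are in more than 1 list. Named genes were the 8 and up to 4 with the largest absolute difference per list. Alternatives were loess centring (span 0.4), an offset of 32, averaged probe sets, a floor at the 75th percentile (8.86), no floor and a 1.5-fold rule. Scripts were tested on simulated data. Python 3.11.15, numpy 2.4.6, pandas 2.3.3, statsmodels 0.14.6 and matplotlib 3.10.9 were used.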

Additional observations from a re-analysis of the deposited data

How the results depend on the processing

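Of the AHR pathway genes, 0 differed by 2-fold under the alternatives that kept this rule, and 0 by 1.5-fold under the 1.5-fold rule. Among all genes past the floor 1.65% differed by 2-fold and 7.39% by 1.5-fold, so a count of 0 among so few says little. The median of the AHR pathway genes, -0.17 over 5 genes, was 0.0605 over 8 with no floor, since the 3 dim genes enter. With no floor the median of the other AHR targets was 0.12. With the floor at the 75th percentile it was 0.0605, that of the chaperones -0.27 over 2 genes and that of the NRF2 regulators -0.054 over 2, since fewer genes enter. The chaperone median of -0.04 was 0.005 after loess centring. Averaging could not move the medians of lists whose genes past the floor all have 1 probe set. These are counted among the 45 recomputed list medians, of which 41 moved by under 0.1. Of 16 differences of single pathway genes recomputed with loess centring or the offset 14 did (each gene has 1 probe set, so averaging could change none), the exceptions being Cyp1a1 (0.19) and Nqo1 (0.40) with the offset, and 7 of 8 genes kept their sign, Arnt not. No paired analysis was possible because there was 1 array per genotype. Dim signal without a detection call limits Cyp1a1, Cyp1b1 and Nqo1.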
